A study of Mus musculus with 21 samples.

Results

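Neutrophil granule and surface genes were examined in RNA from mouse dorsal root ganglia, which house the cell bodies of sensory neurons that supply the skin and deeper tissues. The members are 10 genes listed by name, S100a8, S100a9, Ly6g, Ngp, Camp, Ltf, Lcn2, Mpo, Elane and Retnlg. All 10 were present among the 24381 genes shared by the 2 count tables, and all 10 passed the filter on low counts in each comparison. Their levels were followed across the 6 groups and set against Hba-a1, a haemoglobin alpha chain gene that serves here as a measure of red cell content.

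The mice carried Tmem45b-flox alone (flox) or Tmem45b-flox with Mrgprd-cre (conditional knockout, cKO), in which Cre is driven from Mrgprd, a receptor gene of a class of nonpeptidergic nociceptors. The floxed allele is therefore shared by every group. Untreated libraries carry 2 kinds of name. The LDRG set held 3 flox and 3 cKO libraries, and the con/ko set held 3 flox and 4 cKO libraries. The CFA model (CFA usually means complete Freund's adjuvant, an emulsion that induces inflammation) held 4 flox and 4 cKO libraries. The con/ko names also hold code letters, F or M and then C or L, that the labels do not explain: 4 libraries are C-coded (flox 4 and cKO 4, 5 and 6) and 3 are L-coded (flox 5, flox 6 and cKO 7). The labels give neither age nor strain, nor whether each library is 1 animal, so the p-values given here reflect variation between libraries only, and that variation may partly be technical.

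Total counts ranged from 53.4 M to 72.5 M per library, so that 1 count was worth 0.0142 to 0.0178 CPM (counts-per-million, on normalized library sizes). Tmem45b separated the genotypes in untreated libraries (59.9 to 89.1 CPM in cKO, 124 to 179 CPM in flox) but not in CFA libraries (61.8 to 108 CPM in cKO, 65.9 to 136 CPM in flox), so CFA genotypes are given as labelled. The female-specific transcript Xist ranged from 283 to 459 CPM over 8 CFA libraries and did not exceed 0.33 CPM in any LDRG library. Among con/ko libraries it ranged from 284 to 320 CPM in the 4 coded F and did not exceed 0.21 CPM in the 3 coded M. Sensory neuron markers were 8 genes (Prph, Isl1, Tubb3, Calca, Scn10a, Nefh, Mrgprd and Avil). They summed to 11481 to 12275 CPM in LDRG, 9280 to 11263 CPM in CFA, 8400 to 9749 CPM in C-coded and 8463 to 9899 CPM in L-coded libraries. A zero in these tables can be a failed estimate: in the table that holds the LDRG and CFA libraries, 37 genes were listed at 0 in some library although their median was 100 counts or more. A member at 0 is therefore called listed at 0, and where a compared group has such libraries a fitted log2 difference is given without a fold.

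Neutrophils store antimicrobial proteins in granules that form in sequence in the bone marrow. Azurophil granules form first, at the promyelocyte stage, and contain myeloperoxidase (Mpo), which makes hypochlorous acid, and neutrophil elastase (Elane), a serine protease. Specific granules follow at the myelocyte stage and contain lactoferrin (Ltf), which binds iron, the cathelicidin precursor (Camp), neutrophilic granule protein (Ngp) and lipocalin 2 (Lcn2), which captures bacterial siderophores. Transcripts of granule proteins are abundant in marrow precursors, while S100a8 and S100a9, the cytosolic calgranulins that form calprotectin, and Retnlg, a secreted resistin-like protein, are also abundant in mature neutrophils. Ly6g encodes the surface antigen by which mouse neutrophils are usually sorted. A healthy ganglion contains few neutrophils outside its blood vessels.

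The members lie on 7 chromosomes (mm10, GENCODE vM21). S100a8 (chr3:90668978-90670035) and S100a9 (chr3:90692632-90695721) are neighbours, and Camp (chr9:109847379-109849617), Ngp (chr9:110419747-110423012) and Ltf (chr9:111019271-111042767) share a chromosome. Lcn2 lies at chr2:32384633-32388252, Elane at chr10:79886247-79888215, Mpo at chr11:87793581-87804413, Ly6g at chr15:75155240-75159126 and Retnlg at chr16:48872621-48874496. All are protein-coding. Ly6g belongs to a gene family of similar sequence, and Hba-a1 has a near-identical copy, Hba-a2, so counting may have split their reads, and their levels are uncertain to that extent.

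Promoters of granule genes of the 2 classes are shown because the members moved together, and because the azurophil genes had the largest fitted differences between L-coded and C-coded libraries. Each sequence is the 250 bases before the RefSeq start (GRCm38.p6), 5′ to 3′ on the strand of the gene. Capitals mark a C/EBP-type motif (TTGCNNAA, the family of factors that includes C/EBP epsilon) or an ETS-type motif (GAGGAA, the core bound by PU.1), searched on both strands. The windows are Mpo chr11:87793534-87793783 (plus strand), Elane chr10:79886062-79886311 (plus), Ltf chr9:111019042-111019291 (plus), Ngp chr9:110419558-110419807 (plus) and Lcn2 chr2:32387740-32387989 (minus).
Mpo: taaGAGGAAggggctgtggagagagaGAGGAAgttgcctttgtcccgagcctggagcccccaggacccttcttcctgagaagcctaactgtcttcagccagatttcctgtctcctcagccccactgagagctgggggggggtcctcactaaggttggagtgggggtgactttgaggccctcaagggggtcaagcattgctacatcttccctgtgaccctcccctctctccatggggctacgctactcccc
Elane: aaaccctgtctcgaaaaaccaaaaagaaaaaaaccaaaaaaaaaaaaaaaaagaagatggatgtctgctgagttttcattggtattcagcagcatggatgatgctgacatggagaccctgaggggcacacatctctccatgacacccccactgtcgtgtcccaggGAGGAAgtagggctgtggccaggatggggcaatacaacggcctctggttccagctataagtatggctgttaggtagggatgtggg
Ltf: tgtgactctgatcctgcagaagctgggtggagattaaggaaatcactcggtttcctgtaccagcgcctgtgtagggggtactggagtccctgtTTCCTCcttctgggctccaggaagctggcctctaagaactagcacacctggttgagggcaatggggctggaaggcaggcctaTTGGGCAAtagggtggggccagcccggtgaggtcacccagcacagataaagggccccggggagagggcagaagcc
Ngp: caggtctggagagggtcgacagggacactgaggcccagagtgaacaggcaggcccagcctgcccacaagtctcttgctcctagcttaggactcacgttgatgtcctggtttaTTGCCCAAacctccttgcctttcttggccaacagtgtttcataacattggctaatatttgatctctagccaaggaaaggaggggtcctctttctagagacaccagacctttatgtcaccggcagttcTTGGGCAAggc
Lcn2: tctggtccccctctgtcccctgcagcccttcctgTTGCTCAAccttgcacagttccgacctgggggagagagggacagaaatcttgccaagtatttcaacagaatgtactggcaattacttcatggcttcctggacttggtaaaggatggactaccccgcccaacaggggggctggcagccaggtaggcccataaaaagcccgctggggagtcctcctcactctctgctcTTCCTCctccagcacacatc
Windows of the 10 members were all found in the table, with 2 starts for Ly6g. The C/EBP-type letters stood in 6 of 10 members (Ltf, Ngp with 2 matches, Lcn2, S100a9, Ly6g at 1 of its 2 starts, and Retnlg), against 9.56% of 32851 windows of the same length. A member was counted if any of its windows held the letters. The ETS-type letters stood in 6 of 10 members (Mpo with 2 matches, Elane, Ltf, Lcn2, S100a8 and Ly6g), against 23.3% of all windows. No matches overlapped each other in these windows, and Camp held neither motif. Neither azurophil gene held the C/EBP-type letters in this window. A match is a stretch of letters and shows no binding. By the GENCODE spans given above, the Lcn2 window lies inside the gene, and the Mpo, Elane, Ltf and Ngp windows run past the gene start. The letters found therefore depend on the start used.

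The azurophil genes Mpo and Elane were barely present in LDRG and CFA libraries and reached their highest levels in the L-coded con/ko libraries. Mpo lay at 0.18, 0.37 and 0.44 CPM in LDRG flox libraries 1 to 3, and was listed at 0 and lay at 0.28 and 0.23 CPM in LDRG cKO libraries 1 to 3. In CFA libraries it lay at 0.89, 0.48, 1.23 and 1.46 CPM (flox) and 0.85, 0.61, 0.35 and 1.41 CPM (cKO), so that its CFA and LDRG ranges overlapped. C-coded con/ko libraries gave 3.79 CPM (flox 4) and 5.33, 2.23 and 4.22 CPM (cKO 4, 5 and 6), and L-coded libraries gave 11.5, 37.4 and 107 CPM (flox 5, flox 6 and cKO 7). Elane followed the same order. It was listed at 0 in 5 of 6 LDRG libraries and 2 of 8 CFA libraries and reached at most 0.43 CPM in the others of those sets. It lay at 0.89, 2.05, 1.09 and 0.87 CPM in C-coded libraries (flox 4, cKO 4, 5 and 6) and at 3.90, 10.2 and 42.5 CPM in L-coded libraries.

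Per kilobase of exon, the 4 specific granule genes had higher medians than Mpo and Elane in CFA, C-coded and L-coded libraries, such as 296 CPM per kilobase for Ngp and 62.0 for Ltf in the L-coded ones. Ngp lay at 1.43, 1.48 and 0.58 CPM in LDRG flox and 1.04, 2.10 and 0.69 CPM in LDRG cKO libraries. CFA libraries gave 29.4, 9.44, 22.6 and 30.6 CPM (flox) and 16.3, 10.3, 10.4 and 31.2 CPM (cKO), every one above every LDRG library. C-coded libraries gave 54.5 CPM (flox) and 62.8, 34.4 and 50.0 CPM (cKO), again above every CFA library, and L-coded libraries gave 138, 362 and 741 CPM. Lcn2, which other cells also make during inflammation, spanned a smaller range. It lay at 0.79 to 1.28 CPM in LDRG, 3.54 to 10.8 CPM in CFA, 9.29 to 18.3 CPM in C-coded and 30.0, 72.9 and 138 CPM in L-coded libraries (flox 5, flox 6 and cKO 7), and its CFA and C-coded ranges overlapped. Ltf was listed at 0 in 5 of 6 LDRG libraries and lay at 6.38 to 22.9 CPM in CFA, 17.0 to 32.4 CPM in C-coded and 77.1, 214 and 418 CPM in L-coded libraries. Camp was listed at 0 in 3 of 6 LDRG libraries and lay at 1.28 to 6.01 CPM in CFA, 9.36 to 13.8 CPM in C-coded and 23.0, 60.5 and 170 CPM in L-coded libraries.

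The calgranulins had the highest medians per kilobase of the members in CFA and con/ko libraries. S100a9 lay at 1.31, 1.15 and 0.85 CPM in LDRG flox and 1.68, 1.63 and 0.69 CPM in LDRG cKO libraries. CFA libraries gave 33.6, 12.8, 33.3 and 41.0 CPM (flox) and 20.6, 17.3, 13.7 and 37.8 CPM (cKO). C-coded libraries gave 57.5 CPM (flox) and 78.2, 41.3 and 69.3 CPM (cKO), and L-coded libraries 120, 317 and 637 CPM. The 4 kinds of library did not overlap, although the highest CFA library (41.0 CPM) lay just under the lowest C-coded one (41.3 CPM). S100a8 was listed at 0 in 4 of 6 LDRG libraries and otherwise kept the same order: 7.47 to 26.9 CPM in CFA, 32.8 to 67.9 CPM in C-coded and 108, 271 and 491 CPM in L-coded libraries. Divided by exon length, the median of S100a9 in L-coded libraries was 608 CPM per kilobase, that of S100a8 391 and that of Ngp 296, against 10.9 for Mpo, 10.3 for Elane and 4.99 for Ly6g. The ranges of S100a9 and S100a8 per kilobase overlapped across the L-coded libraries (230 to 1220 and 155 to 708), but within each library S100a9 lay above S100a8, in all 8 CFA, 4 C-coded and 3 L-coded libraries.

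The surface antigen Ly6g, the lowest member per kilobase in con/ko libraries, was listed at 0 in all 6 LDRG libraries. It lay at 0.30 to 1.04 CPM in CFA, at 0.42 (flox 4), 0.96, 0.66 and 1.10 CPM (cKO 4, 5 and 6) in C-coded and at 2.21, 5.19 and 4.70 CPM in L-coded libraries (flox 5, flox 6 and cKO 7). Retnlg had counts in 1 of 6 LDRG libraries and lay at 2.07 to 7.48 CPM in CFA, 4.87 to 9.88 CPM in C-coded and 16.4, 42.2 and 66.3 CPM in L-coded libraries. For both genes the CFA and C-coded ranges overlapped, while the L-coded libraries lay above all others.

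**Figure D1:**
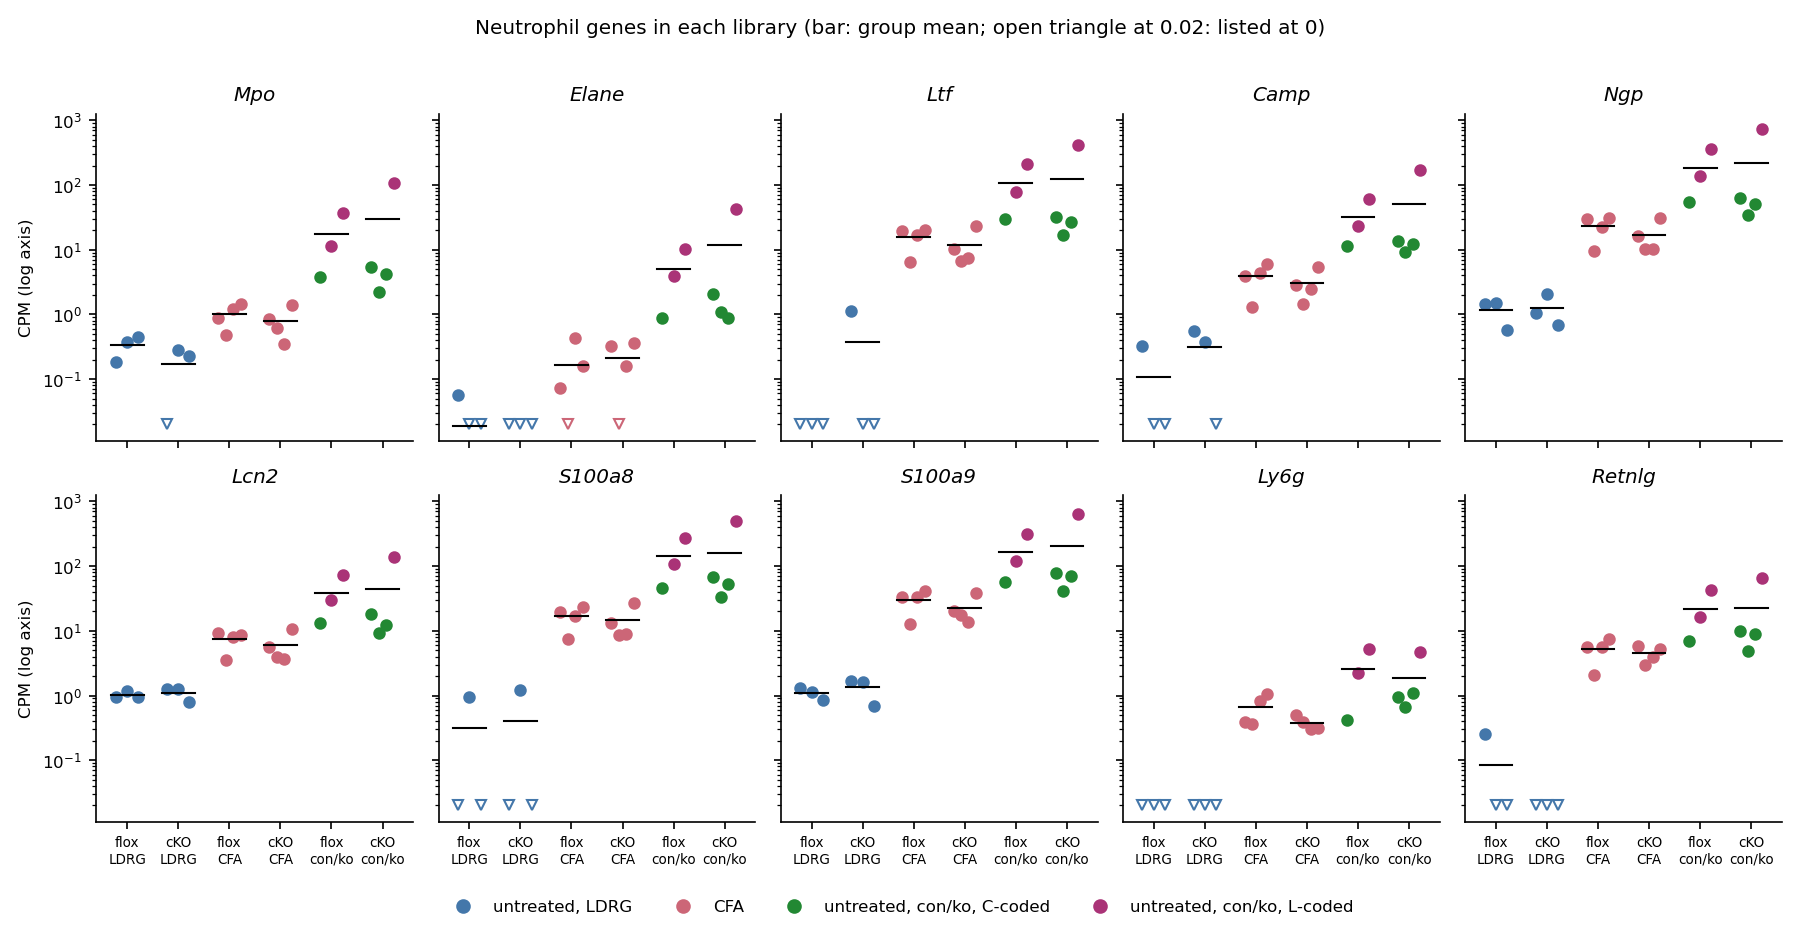
Level of each member in each of the 21 libraries (CPM, log axis) by genotype and name set, with the group mean as a bar and libraries listed at 0 drawn as open triangles at the foot of the axis. Levels step up from LDRG to CFA to C-coded to L-coded con/ko libraries, S100a9 from 0.69 to 637 CPM, while flox and cKO libraries of a set lie at like heights.

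Flox and cKO ganglia of untreated mice were compared to ask what loss of Tmem45b in Mrgprd-lineage neurons does to these genes. With the name set as a covariate, 0 of 10 members passed the test (edgeR quasi-likelihood test, Benjamini-Hochberg adjusted p under 0.05 over all genes tested), where 0.00599% of the 16706 genes tested were called. Differences (cKO minus flox, log2) ran from -0.49 for Ly6g to 0.97 for Elane, with a median of 0.23 against -0.0014 over all genes, and the smallest adjusted p was 0.914. None of the members had an unadjusted p under 0.05, against 1125 genes in all, and DESeq2 also called 0 members. Mean S100a9 in the con/ko set was 165 CPM ± 136 (SD, n = 3) in flox and 206 CPM ± 288 (SD, n = 4) in cKO libraries. The difference of S100a9 (0.30, SE 0.66) became -0.71 without cKO con/ko library 7, the highest for all members but Ly6g, so that its sign rests on 1 library. The SEs of the members, 0.62 to 1.20, are too large for differences of several-fold to be detectable here.

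Within the sets, two-sided exact permutation tests of the genotypes gave no p under 0.05 for any member. The smallest raw p among the 29 tests was 0.2 (Ly6g in CFA, 0.66 CPM ± 0.34 in flox and 0.37 CPM ± 0.09 in cKO, SD, n = 4 each), and every p was 1 after adjustment over the 29 tests. The smallest p that the exact permutation test allows is 0.1 in the LDRG set and 0.0286 in the other sets. In the CFA libraries edgeR called 0 of 10 members between genotypes, where 0% of 16116 genes were called. Differences there ran from -0.80 (Ly6g, SE 0.40, adjusted p = 0.938) to 0.35 (Elane, SE 1.06), and 0 members but 799 genes had an unadjusted p under 0.05. DESeq2 called 0 members and 18 genes. Hba-a1 averaged 120 CPM ± 49.0 in CFA flox and 82.9 ± 27.9 in CFA cKO libraries (SD, n = 4 each), and with Hba-a1 as a covariate S100a9 moved from -0.42 to 0.068.

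The name sets were compared next, since the same genotypes were sequenced in each. All 10 members were higher in con/ko than in LDRG libraries (edgeR, adjusted p between 2.08e-05 and 0.000696), where 26.1% of genes were called higher. The rise was 7.26 on the log2 scale (SE 0.83, 153-fold) for S100a9, 7.38 (SE 0.96, 167-fold) for Ngp, and 5.29 (SE 0.74, 39.2-fold) for Lcn2. The fitted difference of Mpo was 6.54 (SE 1.20), with 1 of 6 LDRG libraries listed at 0. The other members were listed at 0 in 3 to 6 of the 6 LDRG libraries. The median over all genes was 0.037. Of the 8 sensory neuron markers 5 were called lower in con/ko libraries (median difference -0.38), where 3551 of 16706 genes were called lower. Hba-a1 rose by 5.94 (SE 0.26, 61.3-fold, adjusted p = 2.26e-08). Against the C-coded con/ko libraries alone the rise of S100a9 was 5.60 and that of Mpo 4.15, and against the L-coded ones alone 8.20 and 7.54. The sets were deposited as separate tables, so name set and table cannot be told apart. Xist differed too, as it was near 0 in every LDRG library but high in the 4 F-coded con/ko libraries.

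CFA was set against untreated libraries to ask what inflammation changes in the ganglion, and the answer differed in sign with the untreated set used. Against LDRG libraries 8 of 10 members rose in flox ganglia (edgeR, 3.77% of 16605 genes called higher) and 6 of 10 in cKO ganglia (1.7% called higher). Many of these calls rest on LDRG libraries listed at 0. In flox, Ly6g and Ltf were listed at 0 in 3 of 3 LDRG libraries, and S100a8, Camp and Retnlg in 2 of 3. In cKO, Ly6g and Retnlg were listed at 0 in 3 of 3, and Ltf in 2 of 3. Of the members called, only S100a9, Ngp and Lcn2 had counts in every LDRG library. S100a9 rose by 4.77 (SE 0.51, 27.3-fold, adjusted p = 0.000365) in flox and 4.06 (SE 0.49, 16.6-fold, adjusted p = 0.00153) in cKO ganglia. Ngp rose by 4.30 (SE 0.60) and 3.73 (SE 0.58), and Lcn2 by 2.85 (SE 0.43) and 2.43 (SE 0.42). Mpo was 1.60 higher in flox (SE 0.73, adjusted p = 0.207) and 2.23 higher in cKO ganglia (SE 0.78, adjusted p = 0.133, with LDRG cKO library 1 listed at 0) and passed in neither, and nor did Elane (adjusted p = 0.299 and 0.143). In cKO ganglia S100a8 (adjusted p = 0.0525) and Camp (adjusted p = 0.097) also missed the threshold. Leaving out 1 library at a time gave 6 to 8 calls in flox and 4 to 7 in cKO ganglia, the fewest without LDRG flox library 3 and without LDRG cKO library 1 or 3.

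Against con/ko libraries the same CFA libraries were lower. In flox ganglia 7 of 10 members fell (16.3% of 16792 genes called lower) and in cKO ganglia 10 of 10 (18.5% called lower). S100a9 fell by 2.46 (SE 0.84, adjusted p = 0.0412) in flox and by 3.19 (SE 0.84, adjusted p = 0.00928) in cKO ganglia. Mpo fell by 4.12 (SE 1.21) in flox and fell by 5.19 (SE 1.23) in cKO ganglia. Elane was also called lower in both genotypes, with 2 of 8 CFA libraries (flox 2 and cKO 2) listed at 0. Ly6g (-1.99, adjusted p = 0.0588), Ltf (-2.77, adjusted p = 0.0504) and Retnlg (-2.08, adjusted p = 0.0612) missed the threshold in flox ganglia. The contrasts against LDRG and against con/ko share the CFA libraries and are not independent. The CFA and LDRG libraries also differed in Xist, as given above, and in Hba-a1, which was 3.44 higher in CFA flox (SE 0.38) and 2.80 higher in CFA cKO ganglia (SE 0.36). Neither the Hba-a1 nor the Xist ranges of CFA and LDRG libraries overlap. Hba-a1, sex as read from Xist, and CFA therefore cannot be told apart in this contrast. In bulk tissue, more cells of a type and more RNA per cell cannot be told apart. The genotype by CFA interaction was called for 0 of 10 members and 0% of 16605 genes by edgeR, with 1 member and 840 genes at an unadjusted p under 0.05, and DESeq2 called 0 members and 25 genes.

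**Figure D2:**
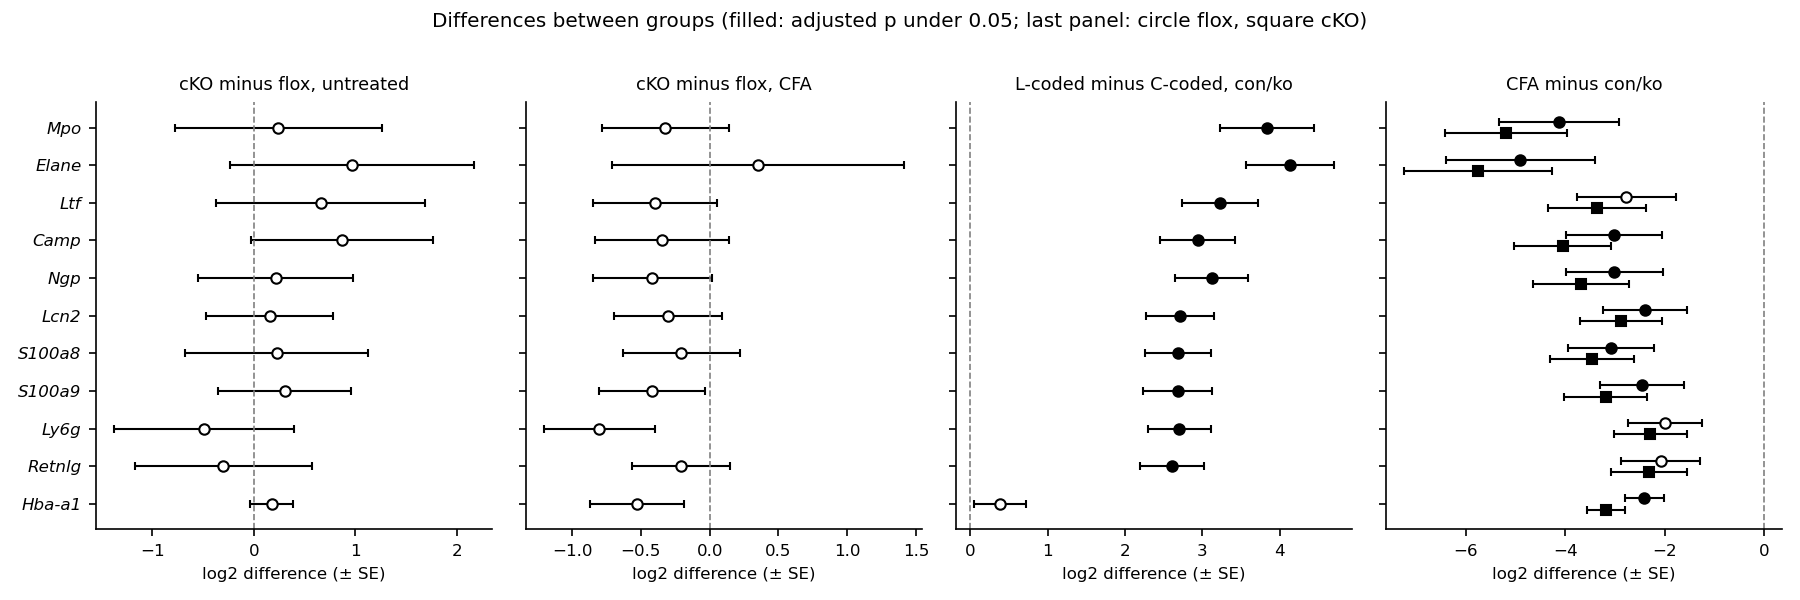
Differences of each member and of Hba-a1 (log2, bars show SE) between genotypes in untreated and CFA libraries, between L-coded and C-coded con/ko libraries, and between CFA and con/ko libraries, with filled symbols past an adjusted p of 0.05. Genotype differences lie around 0 with no filled symbol, while all 10 members lie between 2.61 and 4.13 in the L-coded against C-coded panel, where Hba-a1 lies at 0.38.

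Within the con/ko set the second code letter divided the members completely. Each L-coded library lay above each C-coded library for all 10 members. The share of all genes divided in this way is not given here, and the members move together, so these are not 10 separate results. With genotype as a covariate all 10 were called higher in L-coded libraries (edgeR, adjusted p 0.0396 to 0.0472), where 1.24% of 16481 genes were called higher. This comparison was added after the values were seen. The azurophil genes had the largest fitted differences, Elane by 4.13 (SE 0.57, 17.5-fold) and Mpo by 3.84 (SE 0.60, 14.3-fold). Specific granule genes followed, Ltf by 3.23 (SE 0.50), Ngp by 3.12 (SE 0.48), Camp by 2.94 (SE 0.49) and Lcn2 by 2.71 (SE 0.44). S100a8 differed by 2.69 (SE 0.43), S100a9 by 2.68 (SE 0.45), Ly6g by 2.70 (SE 0.41) and Retnlg by 2.61 (SE 0.42). The order among members was not tested.

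The adjusted p-values lie close to the threshold and the calls are not firm. With no filter on low counts, or with the first code letter as a further term, 0 members were called, although the differences stayed positive (S100a9 2.68 and 2.12). Without flox library 4, 3 members were called, and without flox library 6 or any single cKO library 0 were called, while 10 were called without flox library 5. The difference of S100a9 ran from 1.91 to 3.33 and that of Mpo from 2.67 to 4.77 over these 7 fits. The letters are uneven, since 2 of 3 L-coded libraries but 1 of 4 C-coded ones are M-coded. The M-coded library among the C-coded ones (cKO 6) lay within the range of the others for 8 members, such as S100a8 (53.5 CPM, against 32.8 to 67.9 CPM), above it for Ly6g (1.10 CPM, against 0.42 to 0.96 CPM) and below it for Elane (0.87 CPM, against 0.89 to 2.05 CPM). The F-coded library among the L-coded ones (flox 5) was their lowest for all members.

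Lists of neutrophil genes that include the members were also higher in L-coded libraries, where 1.24% of all genes were called higher. The counts below are therefore not separate from those of the members. Of the 5 azurophil genes, 3 were called higher in L-coded libraries (Mpo, Elane and Prtn3, the gene of proteinase 3, by 4.43, SE 0.46), while Ctsg, the gene of cathepsin G, was 3.44 higher and just missed (adjusted p = 0.0504) and Ms4a3 was 0.69 higher (adjusted p = 0.174). All 8 specific and gelatinase granule genes passed. They are the members Ltf, Camp, Ngp and Lcn2, and also Mmp8, Chil3, Padi4 (3.13), which citrullinates histones, and the gelatinase gene Mmp9 (2.95). Of 10 tested genes of the neutrophil surface and mature neutrophil list 8 passed, including the members Ly6g and Retnlg, the chemokine receptor gene Cxcr2 (3.06) and Trem1 (3.68). None of the 4 transcription factor genes passed, although Cebpe, which drives the specific granule programme, was 2.76 higher (adjusted p = 0.0504) and Gfi1 3.46 higher (adjusted p = 0.0885). The median difference was 3.84 for the azurophil list, which is the value of Mpo itself, and 2.95 for the specific granule list, against -0.0030 over all genes.

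Genes of neutrophil attractants were low throughout. The 10 listed genes (Cxcl1, Cxcl2, Cxcl3, Cxcl5, Csf3, Csf2, Il1b, Il6, Il17a and Tnf) summed to 0.73 to 1.27 CPM in LDRG, 0.88 to 1.37 CPM in CFA, 1.07 to 2.13 CPM in C-coded and 1.69 to 4.03 CPM in L-coded libraries. Csf2 and Il17a were listed at 0 in all 21 libraries. Of the attractant genes tested, 0 of 5 were called for CFA against LDRG in each genotype (3.77% of all genes were called higher in flox and 1.7% in cKO ganglia) and 0 of 4 for L-coded against C-coded libraries (1.24%), so with this few genes the counts do not set the list apart from all genes. Il1b was 1.10 higher in CFA flox ganglia than in LDRG (SE 0.47, adjusted p = 0.184). Between name sets 2 of 5 were called higher in con/ko libraries, where 26.1% of all genes were. These were Il1b (2.29, SE 0.55) and Tnf (2.18, SE 0.83). Genes of receptors for the calgranulins and lipocalin 2 were Tlr4, Ager, Slc22a17 and Lrp2. Of these, 0 of 4 were called for CFA against LDRG in each genotype and for L-coded against C-coded libraries. Between name sets Slc22a17 was called higher (0.33, SE 0.073) and Lrp2 lower (-1.01, SE 0.22). In that comparison 4358 of 16706 genes were called higher and 3551 lower.

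Globin transcripts did not separate the code letters as the members did. Hba-a1 lay at 9.42 to 14.3 CPM in LDRG, 50.8 to 159 CPM in CFA, 437 to 748 CPM in C-coded and 409, 1106 and 845 CPM in L-coded libraries (flox 5, cKO 7 and flox 6), so that C-coded and L-coded libraries overlapped (difference 0.38, SE 0.33, adjusted p = 0.586). Slc4a1, the gene of the band 3 anion exchanger, was 2.92 higher in L-coded libraries (SE 0.56, adjusted p = 0.0563). Band 3 is a major protein of the red cell membrane, while globin transcripts persist in circulating reticulocytes. Of 12 red cell genes tested 1 passed, Rhd (3.13), which encodes a Rhesus antigen, and the median difference was 2.09. Per 100 Hba-a1 counts, Slc4a1 gave 10.5 to 14.3 counts in L-coded and 1.25 to 3.22 in C-coded libraries.

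Set against Hba-a1, S100a9 varied least among the C-coded libraries, which gave 8.75 to 10.7 S100a9 counts per 100 Hba-a1 counts. LDRG libraries gave 6.16 to 13.7, a wider range that spans the C-coded one although S100a9 itself differed by over an order of magnitude. CFA libraries gave 16.8 to 49.9 and L-coded libraries 29.3 to 57.6, above every C-coded and LDRG library. CFA cKO library 4 stood highest in its set (49.9, against 16.8 to 30.4 in the other CFA libraries). Hba-a1 separated LDRG, CFA and con/ko libraries into ranges with gaps between them, so no correlation over all 21 libraries is given. The C-coded and L-coded libraries of the con/ko set are 4 and 3 in number and stand apart for every member, so a relation within each kind cannot be tested. Over both kinds together (n = 7) the 10 members gave r of 0.48 to 0.68 and rho of 0.39 to 0.61 with Hba-a1, with adjusted p of 0.177 to 0.327 in exact permutation tests, and these values mix the difference between code letters with any relation inside each kind.

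Within the 8 CFA libraries the 9 members with counts in every library all correlated positively with Hba-a1, and 1 passed the adjustment over 22 relations computed. Retnlg gave Pearson r = 0.91 (exact permutation p = 0.000273, adjusted p = 0.00600) and Spearman rho = 0.90 (exact permutation p = 0.00456, adjusted p = 0.1) on log2 values. Without the 2 libraries farthest from the median of Hba-a1 (flox 4 and flox 1) its r was 0.90 (exact permutation p = 0.0153, n = 6). It no longer passed the adjustment without CFA cKO library 1, CFA flox library 3 or CFA flox library 4. The other 8 members gave r of 0.62 (Mpo) to 0.77 (Camp), each with an adjusted p of 0.177 in exact permutation tests, and rho of 0.55 to 0.69. Without those 2 libraries their r lay between 0.53 and 0.69 with exact permutation p of 0.122 to 0.297 (n = 6), so these 8 relations passed neither with nor without them. Within the 6 LDRG libraries r was 0.49 for S100a9, 0.39 for Ngp and -0.026 for Lcn2, with adjusted p of 0.367 or more in exact permutation tests (rho 0.60, 0.14 and 0.086).

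**Figure D3:**
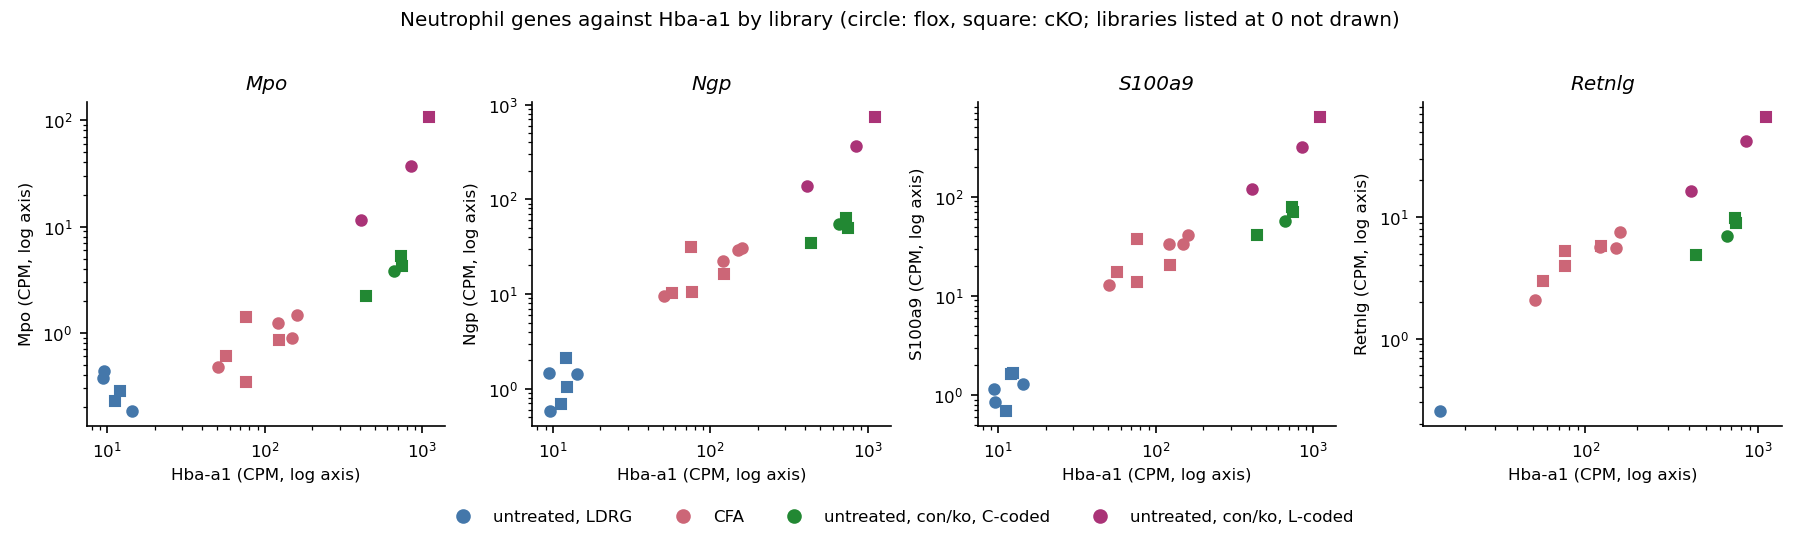
Mpo, Ngp, S100a9 and Retnlg against Hba-a1 in each library (CPM, both axes log), coloured by kind of library, with circles for flox and squares for cKO. LDRG, CFA and con/ko libraries form separate clouds along Hba-a1, and at like Hba-a1 the L-coded libraries lie above the C-coded ones, as for S100a9 at 120 against 41.3 CPM in the libraries with 409 and 437 CPM of Hba-a1.

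Ratios of members to S100a9 also differed between kinds of library, and these differences were not tested. Mpo gave 2.52 to 4.14 counts per 100 S100a9 counts in CFA, 5.40 to 6.82 in C-coded and 9.56 to 16.9 in L-coded libraries, 3 ranges that do not overlap. Elane gave 0 to 1.59, 1.25 to 2.65 and 3.20 to 6.67 per 100 S100a9 counts in the same order, and its CFA and C-coded ranges overlap. Ngp gave 59.6 to 87.5 in CFA and 72.2 to 94.7 in C-coded libraries, which overlap, and 114 to 116 in L-coded libraries. Retnlg gave 13.9 to 28.6 counts in CFA libraries, above all con/ko libraries, while its C-coded (11.8 to 12.8) and L-coded (10.4 to 13.7) ranges overlapped. Counts of a gene scale with its length, so these ratios compare libraries and not genes. LDRG libraries are left out of the figure because their counts are low and several members are listed at 0 there. They do not extend the order above. Mpo, at most 0.44 CPM in LDRG libraries, gave 0 to 51.7 counts per 100 S100a9 counts there (median 24.95). Ngp gave 61.5 to 128.8, a range that takes in the C-coded and L-coded ones.

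**Figure D4:**
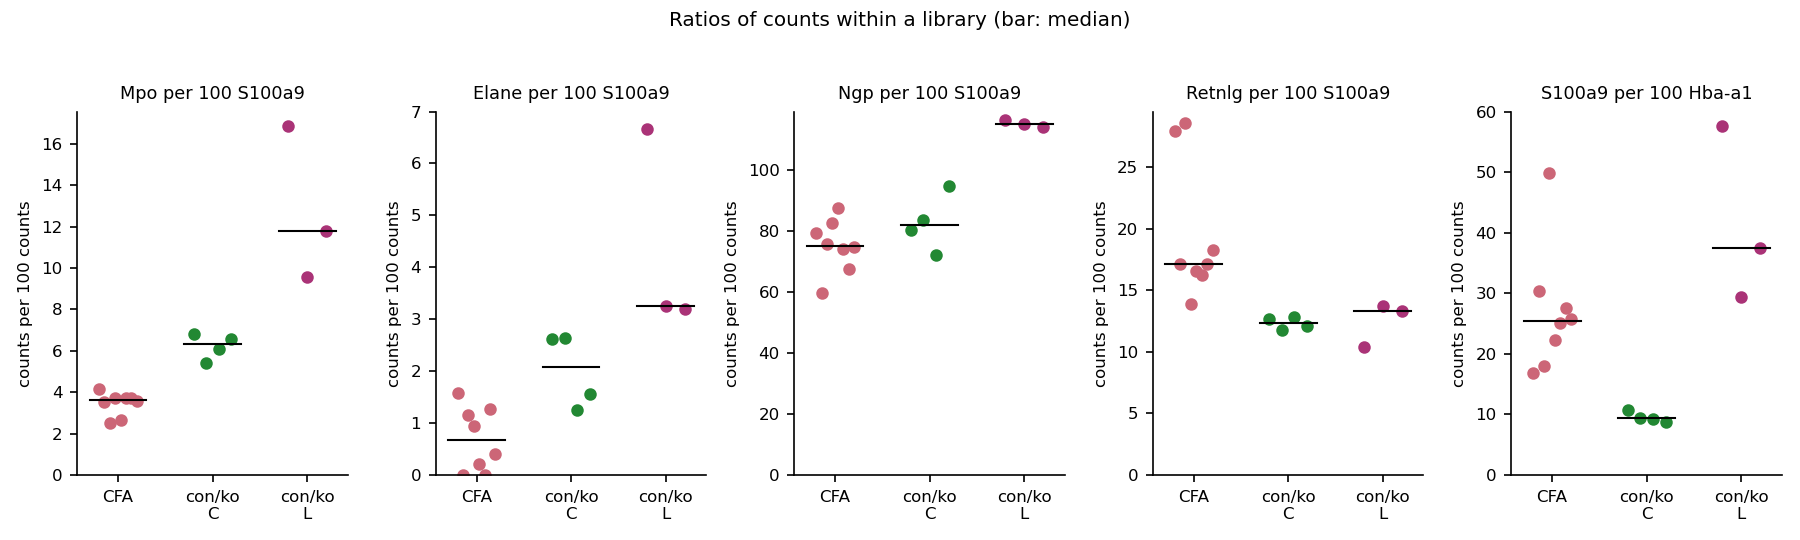
Counts of Mpo, Elane, Ngp and Retnlg per 100 counts of S100a9, and of S100a9 per 100 counts of Hba-a1, in each CFA, C-coded and L-coded library, with the median as a bar. Medians of the azurophil genes rise from CFA to C-coded to L-coded libraries (Mpo 3.63, 6.34 and 11.8), with overlapping CFA and C-coded ranges for Elane. S100a9 per Hba-a1 is lowest in C-coded libraries.

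Markers of other cell types moved with the members to differing degrees, and their part in the results was not tested. Monocyte genes (6, Ly6c2, Ccr2, Lyz2, Chil3, F13a1 and Plac8) summed to 45.7 to 60.6 CPM in LDRG, 80.1 to 116 in CFA, 174 to 184 in C-coded and 252 to 813 in L-coded libraries, with 1 of 6 called between code letters (Chil3, which is also a granule gene). B cell precursor genes (6, among them Vpreb1 and Rag1) summed to 0.08 to 0.38, 0.39 to 0.87, 0.58 to 3.91 and 4.71 to 8.19 CPM in the same order, with 0 of 6 called between code letters (1.24% of all genes called higher). Between name sets 6 of 6 were called higher, as were 6 of 6 monocyte, 6 of 6 macrophage and 12 of 12 red cell genes, where 26.1% of all genes were called higher. Macrophage genes (6, among them Adgre1 and Csf1r) spanned less, 43.5 to 54.6, 62.3 to 88.1, 80.4 to 94.9 and 93.9 to 157 CPM, with 0 of 6 called between code letters. Bone and cartilage genes (7) summed to 10.9 to 15.1, 10.3 to 16.2, 13.3 to 23.4 and 12.6 to 38.1 CPM, with 0 of 7 called between code letters. Their sums overlapped, but 4 of 7 were called higher in con/ko than in LDRG libraries. These were Bglap2 (9.12), Bglap (7.90), Sp7 (2.17) and Col2a1 (1.64). Acan (-0.36), Ibsp (-0.050) and Dmp1 (0.022) were not called. Skeletal muscle genes (8) summed to 79.2 to 710, 64.8 to 154, 87.6 to 458 and 71.7 to 772 CPM. Of these, 1 of 8 was called between code letters (the myosin gene Myh4, 3.30) and 0 of 8 between name sets.

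The genes whose levels most resembled the mean of the members were sought among 14225 genes with a mean of at least 1 CPM, by the correlation of log2 CPM over 21 libraries after centring each name set. The closest 10 were Chil3 (r = 0.97), Chil4, Itgb2, Mmp9, Fcnb, Plek, Ly6c2, Rrm2, Dok3 and Rab44 (r = 0.92). Hba-a1 ranked 865 with r = 0.60. The members themselves correlated with the mean of the other members at 0.98 for S100a9 and Ngp and 0.97 for Lcn2, down to 0.60 for S100a8. S100a8 is listed at 0 in 4 libraries, but Ly6g, listed at 0 in 6, gave 0.82. These values share libraries and depth and are a description.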

How the data were processed

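Poly-A RNA of mouse dorsal root ganglia was sequenced as paired reads, per the labels' protocols. The authors deposited raw read counts per gene in 2 tables, of 14 and 7 libraries. Reads were processed with fastp 0.23.2, BWA 2.2.1 and SAMtools 1.14 on mm10, with DESeq2 1.40.2 also named, per the submitters' processing notes. The read counter, and whether it used strand, are not given in the sources used here. Genotype came from sample titles, since the genotype characteristic is the same for every sample.

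Counts were fitted in R 4.3.3 with edgeR 4.0.16 (filterByExpr with minimum count 10 and total 15, TMM, quasi-likelihood F test, Benjamini-Hochberg threshold 0.05). Fits of untreated libraries of both sets, and of CFA against con/ko libraries, used the shared genes. CFA genotype, CFA against LDRG and the interaction used all genes of the table of 14 libraries. The code letter fit used all genes of the table of 7 libraries. CPM are counts over TMM-adjusted library sizes of all 21 libraries. Permutation tests and correlations used log2(CPM + 0.05). Simulated counts were run through the same fits. Replicates of a group differed by more than sampling noise (chi-square per degree of freedom 26.1 to 145 over 27 pairs). The members and lists were chosen with earlier results of these data known. Named genes are the 10 members, Hba-a1, Tmem45b, up to 4 genes of a list with the smallest p, and the 10 most alike; genes outside that rule (Xist, Ctsg, Ms4a3, Cebpe, Gfi1, Il1b and Slc4a1 among them) were chosen after their values were seen. Alternatives were RLE size factors, DESeq2 1.42.0, other filters, a replicate block, an Hba-a1 covariate, single sets and leaving out each library.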

Additional observations from a re-analysis of the deposited data

Results flagged for a closer look

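In groups of 4 libraries, a library was picked out when its gap to the nearest other library was a large enough share of the range of the group. cKO con/ko library 7, the only L-coded library among 4 cKO con/ko libraries, was picked out in this way for all 10 members. The gap took 0.923 of the range for S100a8, 0.938 for S100a9, 0.89 for Ly6g, 0.96 for Ngp, 0.972 for Camp, 0.961 for Ltf, 0.93 for Lcn2, 0.971 for Mpo, 0.972 for Elane and 0.918 for Retnlg. In that library Ngp lay at 741 CPM, against 34.4 to 62.8 CPM in the other 3 cKO con/ko libraries. Hba-a1 of the same library (1106 CPM, against 437 to 748 CPM) was not picked out. Chance alone picks out about 1 in 20 groups, and 10 of the 33 combinations of gene and group were picked out. The members move together, so these are not 10 separate events. No CFA library was picked out for any member.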

How the results depend on the processing

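The counts of 0 members for genotype in untreated and CFA libraries and for the interaction, and of 10 for name set, held under every alternative run. With con/ko libraries in place of LDRG, the CFA response of cKO ganglia went from 6 members called higher to 10 called lower, and with C-coded con/ko libraries that of flox ganglia went from 8 to 0. Only 1 C-coded library is flox (flox 4), so that fit takes its spread from the other groups. With an Hba-a1 covariate both counts were 0, but Hba-a1 separates CFA from LDRG libraries without overlap: the SE of S100a9 rose from 0.51 to 1.03 (flox), and 4 genes in all were called in each genotype. Leaving out 1 library gave 6 to 8 (flox) and 4 to 7 (cKO). The L-coded against C-coded count of 10 went to 0 with no filter beyond 1 count and to 0 with the first code letter as a further term, was 9 with an Hba-a1 covariate, and ran from 0 to 10 with 1 library left out. The number of relations with Hba-a1 that passed, 1, went to 0 with Alas2 in place of Hba-a1 and without the 2 farthest libraries, and ran from 0 to 8 with 1 library left out: 8 without flox con/ko library 5 (7 of them over con/ko libraries), 6 without CFA cKO library 4, and 0 without CFA cKO library 1 or CFA flox library 3 or 4. The cause of these changes was not tested.

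Signs changed as follows. The CFA response (flox, then cKO) with con/ko in place of LDRG libraries was -2.46 and -3.19 for S100a9, -3.01 and -3.68 for Ngp, -2.39 and -2.87 for Lcn2 and -4.12 and -5.19 for Mpo. With F-coded con/ko libraries it was -1.57 and -1.41, -2.08 and -1.50, -1.55 and -1.20, and -2.92 and -2.22 for the same genes, and with C-coded ones (flox values from 1 untreated library) -0.94 and -1.49, -1.25 and -1.52, -0.86 and -1.14, and -1.91 and -2.28. Mpo in flox ganglia was -0.11 with an Hba-a1 covariate. The untreated genotype difference became -0.53 for S100a9, -0.80 for Ngp and -0.62 for Lcn2 with an Hba-a1 covariate. It ran from -0.71 to 0.84, -1.08 to 0.77 and -0.81 to 0.60 with 1 library left out, negative for all of these without cKO con/ko library 7 and also for Ngp (-0.044) and Lcn2 (-0.063) without flox con/ko library 4. The CFA genotype difference became 0.068, 0.13 and 0.12 with an Hba-a1 covariate.

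Same-numbered libraries did not deviate together (correlations of deviations -0.17 to 0.32), so the numbers do not pair the libraries. With the replicate block the untreated differences were -0.61, -0.95 and -0.67 for S100a9, Ngp and Lcn2, no count of members changed, and the genes called for the CFA response went from 1133 to 738 (flox) and from 433 to 217 (cKO).

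Counts over all genes moved more. DESeq2 called 39 genes for untreated genotype (1 in edgeR), 18 for CFA genotype (0), 25 for the interaction (0), 1928 and 1292 for the CFA responses (1133 and 433) and 1471 for the code letter (223). With 1 library left out the untreated genotype gave 1 to 44 genes, the CFA responses 462 to 1380 and 61 to 725, and the code letter 12 to 536. The untreated genotype gave 40 genes in the con/ko set alone, 49 with the code letter as a term, and 3 in the LDRG set alone. The CFA responses gave 5000 and 6023 genes against con/ko, 3839 and 5314 against F-coded, 2731 and 5761 against C-coded libraries, and 4 and 4 with an Hba-a1 covariate. The code letter gave 16 genes with no filter, 14 with the first letter as a term and 588 without genotype. Name set gave 5135 genes in flox and 4102 in cKO libraries alone (7909 together).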

Other observations

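Lists of other cell types also had positive medians between code letters (L minus C, log2): 1.54 for T and NK cell genes, 1.54 for B cell, 1.46 for B cell precursor, 1.63 for monocyte and 0.53 for macrophage genes. The differences between lists were not tested. T and NK cell genes (5, among them Cd3e and Nkg7) summed to 0.73 to 1.92 CPM in LDRG, 0.70 to 1.70 in CFA, 1.28 to 2.61 in C-coded and 2.65 to 7.23 in L-coded libraries, with 0 of 5 called between code letters, where 1.24% of all genes were called higher. Platelet and megakaryocyte genes (5, among them Pf4) ran from 8.49 to 71.3 CPM over all libraries with no such order, and 1 of 5 was called between code letters (Ppbp). Of 6 mast cell and basophil genes 2 rose in CFA against LDRG flox ganglia (Mcpt4 and Tpsb2, where 3.77% of all genes were called higher) and 3 in cKO ganglia (with Cpa3, where 1.7% were called higher), and 1 of 6 was called between code letters (Prss34).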
